A study of Mus musculus with 104 samples.

Results

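The liver contrast described here set livers taken around birth against livers taken around weaning. The perinatal side held the 4 libraries of late embryos (E18.5) and the 4 libraries of postnatal day 1 (P1), and the weaning side held the 3 libraries of P15 and the 5 libraries of P20, so that 16 of the 104 samples analysed entered it. Every animal was a C57BL/6 mouse (C57BL/6J in the study's methods) with no genetic change or treatment named in the labels, and each library was one liver sample. The labels of these libraries do not give the sex of the animals. DNA methylation had been measured by reduced representation bisulfite sequencing (RRBS), in which DNA cut by the enzyme MspI is treated with bisulfite which turns unmethylated cytosines into bases read as thymine. All 70259 CpGs of the time-course liver data had at least 4 values on each side and were tested. Libraries are labelled as separate samples of an age and nothing states that they came from separate litters, so the p-values measure the spread between these samples.

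In mammals a methyl group sits on most cytosines that are followed by guanine, except in CpG-dense promoters and at active regulatory elements. DNMT1 copies the mark at replication, DNMT3A and DNMT3B write it anew, and TET enzymes start its removal. The liver is a blood-forming organ before birth, and during suckling it turns into the organ of plasma protein synthesis, bile formation and fuel metabolism that it is in the adult. In bulk liver DNA a change in the mixture of cells and a change of methylation inside 1 cell type cannot be told apart.

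Depth moved with age. A perinatal library had a value at 34917 to 70259 CpGs (median 70130), and a weaning library at 22491 to 69964 (median 62113). A value of exactly 100%, which is more frequent when few reads cover a CpG, made up 0.127% to 7.91% of a perinatal library (median 2.01%) and 6.74% to 19.4% of a weaning library (median 12.03%). Age and depth cannot be fully told apart in this design. With the 3 perinatal libraries of lower coverage alone on the perinatal side, 3365 CpGs rose and 651 fell at the limits given below, 83.8% of them gains. This left 3 libraries in place of 8 on that side, so depth and the number of libraries cannot be told apart in these counts.

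The 5 runs with the most neighbouring CpGs in each direction are shown first, because they show the local form of the changes. A run was at least 3 neighbouring CpG dyads, each within 200 bp of the next, that all changed in the same direction at the limits given below; a dyad is the CpG of both strands, averaged. The sequences are those of the mm9 plus strand, with the CpGs of the run in capitals. The runs at Akap5 and Plekhh3 overlap untranslated exons and are not printed. For Mn1 and the intergenic run on chromosome 15, only the part with the most CpGs is given.
Mn1 exon, chr5:111848246-111848402, rose: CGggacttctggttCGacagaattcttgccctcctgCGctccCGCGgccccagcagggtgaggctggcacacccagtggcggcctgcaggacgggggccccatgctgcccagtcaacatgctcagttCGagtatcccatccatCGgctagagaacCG
intergenic, chr15:100884626-100884748, rose: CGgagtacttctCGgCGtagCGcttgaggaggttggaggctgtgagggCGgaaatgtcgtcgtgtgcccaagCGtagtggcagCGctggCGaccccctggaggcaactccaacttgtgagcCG
Fut11 exon, chr14:21514406-21514565, rose: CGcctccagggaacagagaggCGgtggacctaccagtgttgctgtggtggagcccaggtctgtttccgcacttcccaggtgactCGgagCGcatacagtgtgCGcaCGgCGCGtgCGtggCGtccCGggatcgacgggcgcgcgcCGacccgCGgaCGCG
Fgg exon, chr3:82816735-82816909, fell: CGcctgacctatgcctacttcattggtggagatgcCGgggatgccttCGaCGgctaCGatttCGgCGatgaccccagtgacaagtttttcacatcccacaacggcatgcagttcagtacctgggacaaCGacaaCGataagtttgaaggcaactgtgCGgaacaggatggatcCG
Sipa1 exon, chr19:5654838-5654926, fell: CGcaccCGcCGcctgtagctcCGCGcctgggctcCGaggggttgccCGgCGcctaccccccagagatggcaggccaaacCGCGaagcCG
C530008M17Rik promoter, chr5:77287084-77287156, fell: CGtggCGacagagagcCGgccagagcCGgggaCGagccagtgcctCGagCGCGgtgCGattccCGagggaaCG
BC020535 exon, chr2:152897673-152897720, fell: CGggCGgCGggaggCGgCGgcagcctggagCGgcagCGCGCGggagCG
Scarb1 exon, chr5:125766444-125766570, fell: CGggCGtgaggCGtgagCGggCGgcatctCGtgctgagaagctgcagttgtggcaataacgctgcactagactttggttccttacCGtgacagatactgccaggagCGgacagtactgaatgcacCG

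Between the perinatal and the weaning livers 25.4% of the CpGs changed, and most of them gained methylation. The limits for a call were a limma p of 0.1 after Benjamini-Hochberg adjustment and a mean difference over 5 percentage points. With them 15055 CpGs rose (21.4% of those tested) and 2774 fell (3.95%). Of the calls 84.4% were gains. The median gain was 20.1 points, with quartiles of 15.9 and 25.9, and the median loss was 24.7 points (quartiles -31.9 and -19.1). Changes over 30 points were found at 2323 CpGs that rose and 856 that fell. The smallest change among the calls was 6.08 points, and the adjusted p of the last call was 0.1.

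The surplus of gains depended in part on how libraries were scaled. The median change over all CpGs was 6.58 points and 75.7% of the CpGs had a mean change above 0. When each library was centred on its own median, the median change was 1.73 points, a shift of 4.85 points, and 5978 CpGs rose while 3839 fell, so that gains made up 60.9% of the calls. Centring takes the same amount from nearly every change, so fewer gains and more losses follow from its construction.

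Few CpGs separated the libraries without overlap. A value in all 16 libraries was available at 6142 CpGs. At 185 of them (3.01%) every weaning library was higher than every perinatal library, and at 40 (0.651%) every one was lower. Of the called CpGs with a full set of values, 177 of 1361 that rose (13.0%) and 40 of 257 that fell (15.6%) showed no overlap, beside calls at 21.4% and 3.95% of all CpGs.

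Gains and losses began from different levels. CpGs that rose had a median perinatal level of 62.5% (quartiles 31.9% and 73.8%) and a median weaning level of 84.7% (63.5% and 92.2%). CpGs that fell began at a median of 50.6% (37.0% and 63.9%) and ended at 22.2% (12.2% and 34.1%). The gains were thus mostly toward high methylation, and the losses mostly passed from intermediate to low methylation. Libraries of P5 and P10, which had no part in the calls, had mean levels between these ends. At CpGs that rose the mean went from 53.1% (perinatal) over 62.4% (P5) and 69.6% (P10) to 75.1% (weaning). At CpGs that fell it went from 50.6% over 40.5% and 38.7% to 24.4%.

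The share of CpGs called varied with the perinatal level. Among CpGs at 0 to 10% in the perinatal livers 13.2% rose and 0.0629% fell. The share that rose was highest at 60 to 70% (29.2%) and 70 to 80% (27.7%), and it was 14.0% at 80 to 90% and 0.728% at 90 to 100%. The share that fell was highest at 40 to 50% (12.3%), with 8.48% at 20 to 30% and 1.29% at 80 to 90%. This level enters the change itself, so the pattern is a description with no test. A CpG near 0 cannot fall by over 5 points, and the authors had removed CpGs under 10% in all samples, so that CpGs with a low start are those that reached 10% in some library.

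When separate libraries set the level, methylation rose in the 4 bins of starting level above 20%, though in 1 of them the call depended on the CpGs used. CpGs were sorted by their mean in the 4 E18.5 libraries alone, and the 4 P1 libraries were compared with the 8 weaning libraries by exact permutation tests, 2-sided, of library means. CpGs starting at 0 to 20% (16448 CpGs) went from 8.30% ± 0.221 (SD, n = 4) at P1 to 14.5% ± 1.13 (n = 8), but the authors' filter kept CpGs near 0 only where some library reached 10%, so this rise is in part fixed by the filter and is given as a description. CpGs starting at 60 to 80% (22436 CpGs) went from 73.9% ± 1.41 to 79.98% ± 1.14, and those at 80 to 100% (11961 CpGs) from 85.2% ± 0.775 to 90.03% ± 0.713. In the bins from 60 to 100% and at 20 to 40% (7347 CpGs, a rise of 5.49 points) every weaning library was above every P1 library (adjusted exact permutation p = 0.00253 over 5 bins; 0.00202 is the smallest p that 495 arrangements allow). The rise was smallest at 40 to 60%, with 4.23 points over 12067 CpGs (adjusted exact permutation p = 0.0121). Over the CpGs with a value in all 16 libraries it was 2.43 points in this bin and did not pass (adjusted exact permutation p = 0.0788). With the level set at P1 and the change taken from E18.5, the order of the bins was different: the rise was smallest at 0 to 20% (5.42 points), 6.07 points at 40 to 60%, 10.3 points at 60 to 80% and 8.37 points at 80 to 100%.

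**Figure D1:**
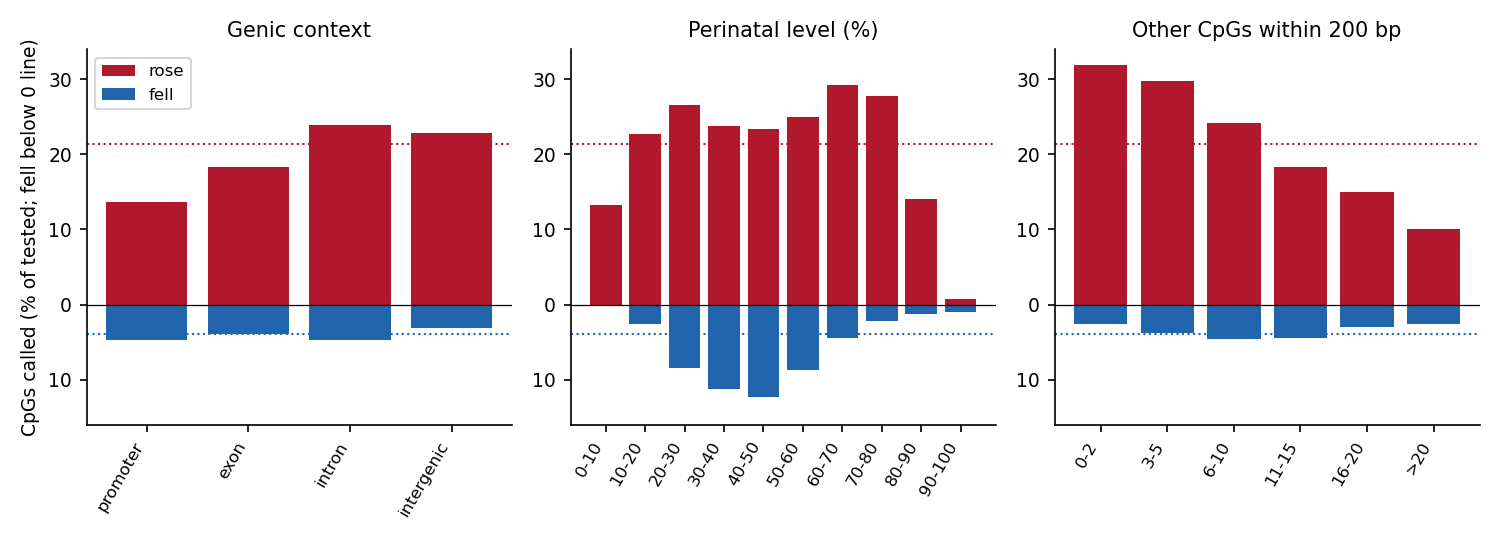
Percent of tested CpGs called as risen (red, upward) or fallen (blue, downward) by genic context, by the mean perinatal DNA methylation level and by the number of other CpGs within 200 bp; dotted lines give the shares over all CpGs (21.4% and 3.95%). The share that rose goes from 31.9% at CpGs with at most 2 others within 200 bp to 10.0% at those with over 20, and the share that fell peaks at perinatal levels of 40 to 50%.

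Promoters, defined as the 1 kb before an annotated start site, changed less often in the direction of gain than other places. Of 6175 promoter CpGs 13.6% rose and 4.66% fell. Of 14734 exonic CpGs 18.3% rose and 3.94% fell, of 23560 intronic CpGs 23.9% and 4.75%, and of 25637 intergenic CpGs 22.9% and 3.07%. Promoters thus held 5.58% of all gains and 10.38% of all losses, introns 37.4% and 40.3%, and intergenic DNA 39.0% and 28.4%. With libraries centred, more promoter CpGs fell (6.40%) than rose (5.46%), whereas more CpGs rose than fell in exons (7.03% and 5.28%), introns (9.83% and 6.55%) and intergenic DNA (8.90% and 4.38%). The median change of promoter CpGs was 3.55 points, less than the 4.85 points that centring removed. Promoter CpGs began low, at a median of 12.3%, against 61.8% in exons, 63.2% in introns and 64.3% in intergenic DNA. Among CpGs that began between 20% and 80%, 20.1% of 1994 promoter CpGs rose and 12.8% fell, against 26.4% and 4.13% of 17539 intergenic CpGs.

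Gains were also fewest close to protein-coding start sites. Within 1 kb 13.4% of 11905 CpGs rose and 4.42% fell. Between 1 and 5 kb 21.1% rose and 5.03% fell. From 50 to 100 kb 25.6% rose and 3.12% fell, and beyond 100 kb 21.6% and 2.31%. Losses were thus least frequent in the DNA farthest from these start sites.

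CpG-poor DNA gained most. Of CpGs with at most 2 other CpGs within 200 bp 31.9% rose, of those with 3 to 5 others 29.7%, of those with 11 to 15 others 18.4%, and of those with over 20 others 10.0%. The share that fell was highest with 6 to 10 others (4.65%) and lowest at both ends (2.55% and 2.60%). The share with libraries centred followed the same order for gains, from 13.6% to 4.37%. Over autosomes the share that rose ran from 20.4% on chromosome 19 to 23.99% on chromosome 14, and the share that fell from 2.63% on chromosome 14 to 5.33% on chromosome 5. On the X chromosome 13.8% of 347 CpGs rose and 2.59% fell.

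Library means gave one value per animal. Over the 6142 CpGs with a full set of values, a perinatal library had a mean methylation of 43.9% to 50.1% and a weaning library 50.6% to 54.2%, with no overlap. The difference was 5.30 points (exact permutation test, 2-sided, adjusted p = 0.000285 over 11 comparisons; raw p = 0.000155, the smallest that 12870 arrangements allow). Promoters went from 25.3% ± 1.17 (SD, n = 8) to 28.7% ± 1.35, exons from 46.9% ± 1.61 to 52.1% ± 1.26, introns from 49.1% ± 1.91 to 54.3% ± 1.10 and intergenic CpGs from 51.5% ± 2.75 to 57.3% ± 1.11, each with an adjusted exact permutation p of at most 0.000488. CpG-poor places (at most 5 others within 200 bp, 1057 CpGs) went from 59.0% ± 2.79 to 67.2% ± 1.21 (adjusted exact permutation p = 0.000285). CpG-dense places (over 20 others, 1331 CpGs) went from 26.3% ± 2.53 to 28.5% ± 1.95, which did not pass (adjusted exact permutation p = 0.0802). This call depended on the CpGs and libraries used: the change was 4.17 points and passed over every CpG with a value (adjusted exact permutation p = 0.000285), and it passed with 1 value per dyad (adjusted exact permutation p = 0.0404) and without P1 replicate 3 or P20 replicate 2. Over all tested CpGs, the median perinatal level was 12.3% in promoters and 7.27% with over 20 other CpGs within 200 bp. The authors' filter kept CpGs under 10% only where some library reached 10%. The rises in promoters and CpG-dense places are thus in part fixed by the filter. The contexts also moved apart within libraries. The intergenic mean exceeded the promoter mean by 26.2 points in perinatal and 28.6 points in weaning libraries (adjusted exact permutation p = 0.0115), and the CpG-poor mean exceeded the CpG-dense mean by 32.7 and 38.7 points (adjusted exact permutation p = 0.000285). With medians in place of means, neither the intergenic and promoter difference (adjusted exact permutation p = 0.207) nor the exon change (adjusted exact permutation p = 0.0688) passed.

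**Figure D2:**
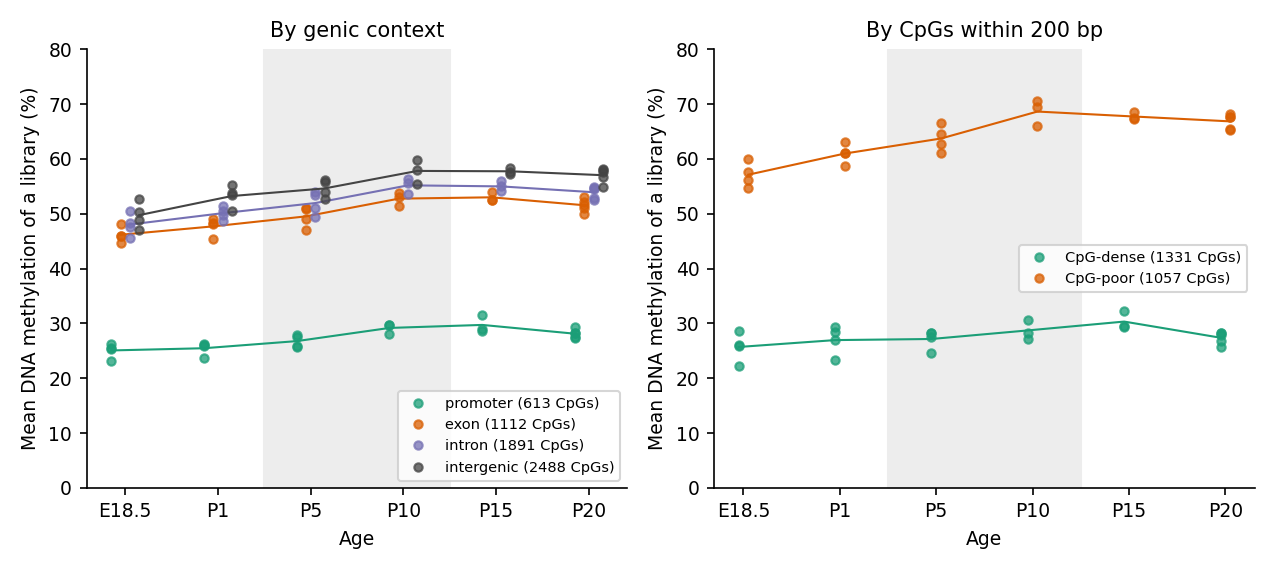
Mean DNA methylation (percent) of each of the 23 liver libraries over the CpGs with a value in all 16 libraries compared, by age; points are libraries, lines join the means of the ages, and P5 and P10 (grey band) had no part in the tests. The CpG-poor libraries lie between 54.7% and 63.1% at E18.5 and P1 and between 65.3% and 68.5% at P15 and P20, while the CpG-dense libraries overlap.

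A part of the changes came in local runs. Of 69700 dyads 14999 rose (21.5%) and 2761 fell (3.96%). Runs of at least 3 dyads numbered 733 among gains and 224 among losses, with 2776 and 891 dyads. These were 18.51% of the dyads that rose and 32.3% of those that fell, while 76.9% and 85.6% had a tested dyad within 200 bp, so most called dyads lay outside runs. The median run had 3 dyads in each direction and spanned 49 bp for gains and 48 bp for losses, about the length of a read; 344 and 100 runs were longer than a 50-base read. The longest spanned 613 bp and 360 bp. Gains and losses seldom met: of 8642 stretches of at least 3 tested dyads, 3659 held a gain, 750 a loss and 33 both. Introns held 34.2% of the runs that rose and 36.2% of those that fell, exons 27.4% and 29.5%, promoters 7.09% and 11.2%, and intergenic DNA 30.97% and 23.2%, beside 33.5%, 20.97%, 8.79% and 36.5% of all tested CpGs.

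Neighbours resembled each other beyond the reach of a single read. The changes of 2 dyads 1 to 10 bp apart had a Pearson r of 0.784 across 12660 pairs, and the same value was 0.665 at 51 to 100 bp, 0.606 at over 200 to 500 bp, 0.481 at over 500 to 1000 bp and 0.229 at 1 to 5 kb. These are descriptions across pairs that share libraries, and pairs within 50 bp also share reads. Where both dyads were called, they moved the same way in 1637 of 1637 pairs at 1 to 10 bp, in 1409 of 1418 pairs at 51 to 100 bp and in 1010 of 1040 pairs at over 500 to 1000 bp. At 5 to 10 kb, where r was 0.0972, 75.9% of the called pairs moved the same way; since 84.4% of the calls were gains, many pairs agree at any distance. Of the neighbours of a dyad that fell, 53.0% also fell at 51 to 100 bp, 28.9% at over 500 to 1000 bp 6.51% at 1 to 5 kb and 11.1% at 5 to 10 kb, beside 3.96% of all dyads. Of the neighbours of a dyad that rose, 48.3%, 51.4%, 30.8% and 25.4% also rose at these distances, beside 21.5%. Both strands of one CpG, which are read from different molecules, had been measured at 559 CpGs. Their changes had a Pearson r of 0.715 and differed by a median of 4.80 points, and the 73 CpGs called on both strands moved the same way on both, while 107 were called on 1 strand only.

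**Figure D3:**
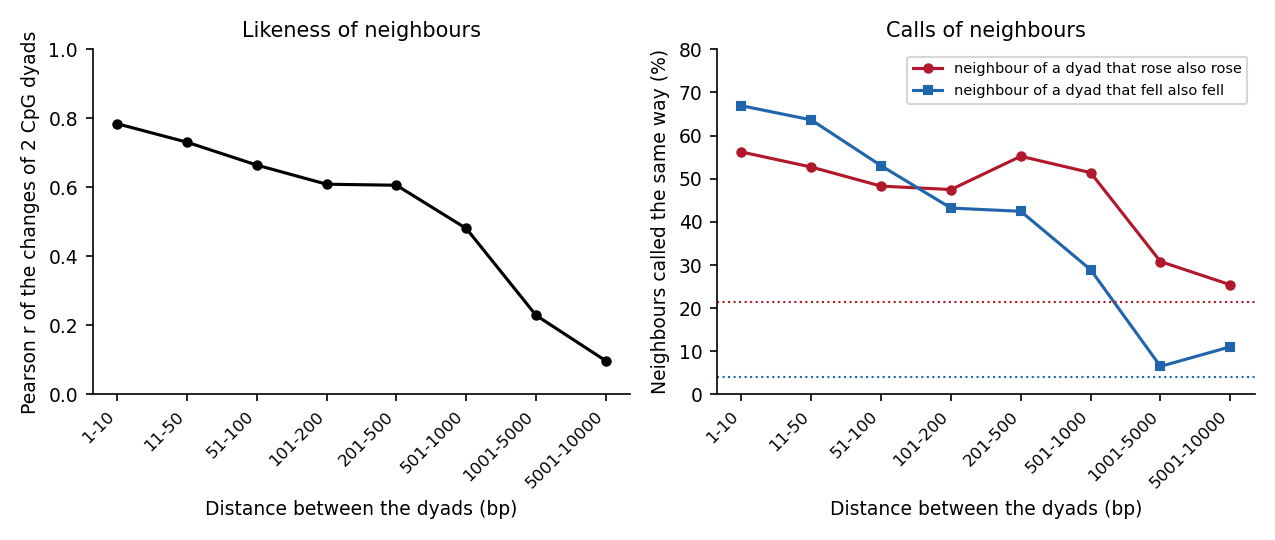
Likeness of the changes of CpG dyads by the distance between them: Pearson r of the change (left), and the percent of neighbours that were called in the same direction as a called dyad (right), with dotted lines at the shares over all dyads (21.5% rose, 3.96% fell). The share of neighbours that also fell goes from 66.9% at 1 to 10 bp to 6.51% at 1 to 5 kb and is 11.1% at 5 to 10 kb.

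The longest run that rose lay in the coding exon of Mn1, a transcriptional coregulator first known from meningioma and myeloid leukemia. Its 23 dyads spanned chr5:111848246-111848858, 1784 bp inside the gene from its start site. The mean over the run was 14.5% to 20.95% in perinatal libraries (median 17.1%) and 44.2% to 62.1% in weaning libraries (median 57.2%), with means of 30.9% at P5 and 39.8% at P10. The groups did not overlap, and the dyads gained 20.0 to 56.2 points (limma, largest adjusted p = 0.0578). Of the 23 tested dyads within 1 kb on either side 20 also rose. The 100 kb around Mn1 was also the window with the most gains in the genome, 45 of 54 dyads, with 1 loss.

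The run at Akap5, which encodes an anchoring protein for protein kinase A, covered 18 dyads at its start site (chr12:77425795-77426040). It was almost unmethylated in perinatal livers, at 0.0911% to 1.28%, and reached 21.3% to 31.3% in weaning livers. Fut11, a fucosyltransferase gene, showed the same form: 15 dyads of a coding exon were at 0 to 1.24% in every perinatal library and at 18.47% to 40.6% in every weaning library. Both were partly methylated at P5 (5.16% and 5.79%) and P10 (10.96% and 18.53%). CpGs this low around birth passed the authors' filter through libraries in which they were higher, so that a rise was in part fixed by the filter. Both runs lay in CpG-dense DNA and began near 0, whereas the median perinatal level of the CpGs that rose was 62.5%.

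At Plekhh3, a gene for a protein with pleckstrin homology and FERM domains, 14 dyads of an exon (chr11:101025492-101025747) went from 8.78% to 38.9% (median 20.7%) to 73.6% to 89.5% (median 80.6%), the largest mean gain of the 5 runs, 59.4 points. The intergenic run at chr15:100884389-100884748, 61438 bp upstream of Ankrd33, went from 12.9% to 18.8% (median 15.7%) to 47.8% to 80.7% (median 59.9%) over 15 dyads. None of the 5 gaining runs had overlapping sides, but their dyads had been called for a difference between these sides. In muscle the 10 CpGs of the Plekhh3 run that were measured went from a mean of 51.8% to 76.7% at the same ages, and in heart 13 went from 57.9% to 77.9%. Mn1 went from 17.7% to 31.4% in muscle (19 CpGs) and from 21.4% to 32.3% in heart (21 CpGs), beside 37.3 points in liver. These differences between tissues were not tested over whole runs.

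Of the runs of 11 dyads, the most dyads among losses, the one with the largest mean change lay in Fgg, which encodes the gamma chain of fibrinogen, the clotting protein that hepatocytes secrete. All 11 dyads in a coding exon 4953 bp from the start site fell, by 32.4 to 47.6 points (limma, largest adjusted p = 0.0399). The mean of the run was 65.4% to 79.5% in perinatal libraries (median 75.6%, 7 libraries) and 15.9% to 59.8% in weaning libraries (median 34.1%, 8 libraries), with 67.0% at P5 and 50.2% at P10. The sides did not overlap. The first CpG of the sequence shown had the smallest p of the hepatocyte list among losses. It was at 69.2% to 88.9% in perinatal and 18.8% to 52.0% in weaning livers (limma, adjusted p = 0.000206).

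Scarb1, which encodes the receptor that takes up cholesterol from high-density lipoprotein into hepatocytes, lost methylation over 9 dyads of a noncoding exon, 477 bp from its start site at the nearest. The run was at 75.03% to 83.2% in perinatal libraries (median 80.5%) and at 22.5% to 45.5% in weaning libraries (median 31.4%), and it had already fallen to a mean of 49.2% at P5 (56.9% at P10). Not all of Scarb1 lost methylation. Of its 21 tested CpGs 10 fell and 5 rose, with changes from -57.5 to 21.3 points.

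Sipa1, which encodes a GTPase-activating protein of the small G protein Rap1, went from 38.7% to 70.6% (median 58.7%) to 11.8% to 38.0% (median 29.4%) over 11 dyads, and its sides did not overlap. The runs at C530008M17Rik and BC020535, whose products have no assigned role here, fell by 28.7 and 24.5 points on average, but the lowest perinatal library lay below the highest weaning library in both (29.4% against 35%, and 22.7% against 35.8%). The window of 100 kb with the most losses was that of C530008M17Rik, 26 of 36 dyads with no gain. In heart 7 CpGs of the Sipa1 run had means of 25.6% at P1 and 47.1% at P15 and P20, and in muscle 9 CpGs of the BC020535 run had 5.16% and 10.1%. In muscle 8 CpGs of the C530008M17Rik run had 35.1% and 22.6%. These were not tested over runs.

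**Figure D4:**
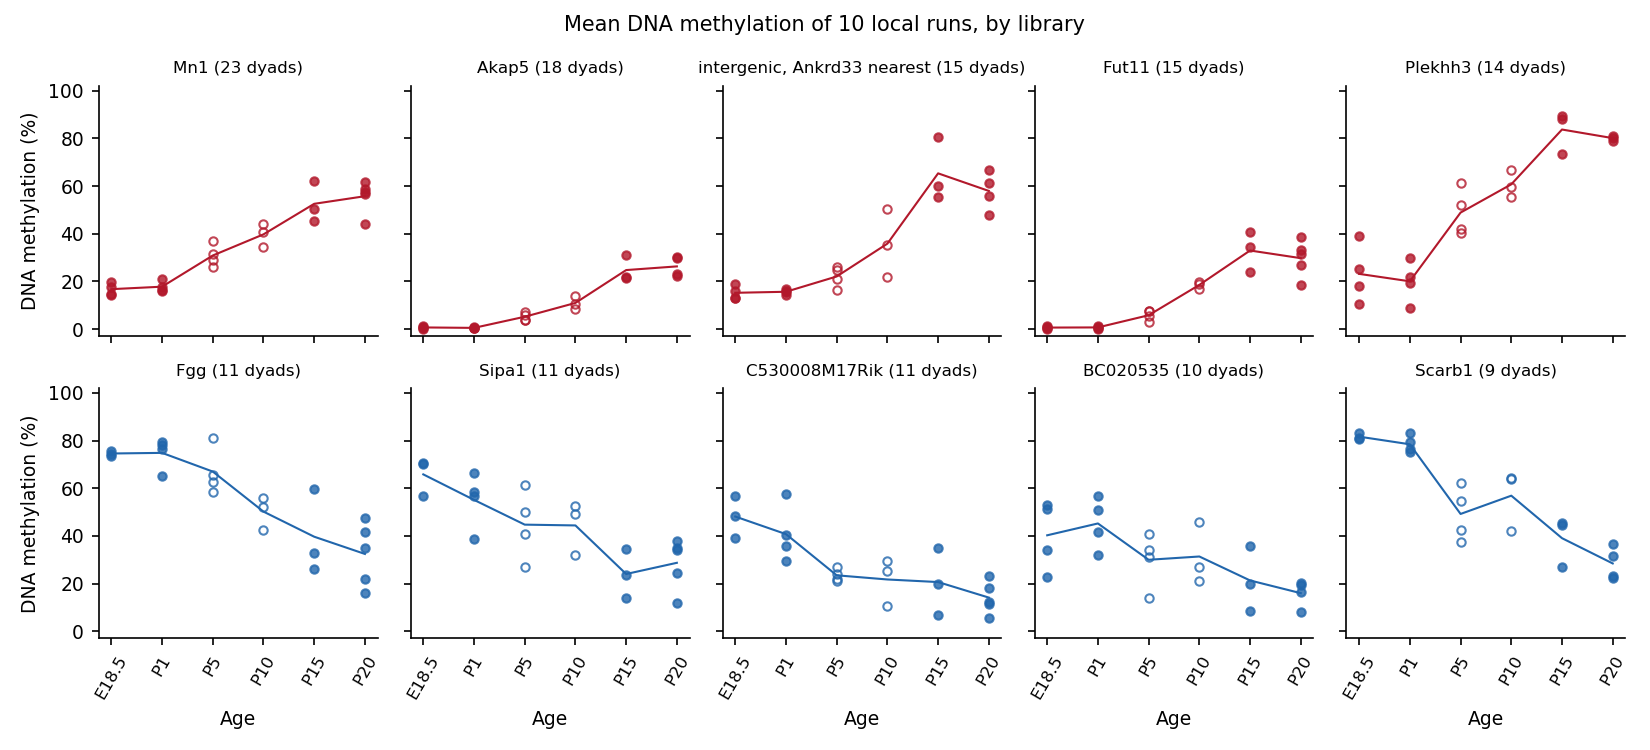
Mean DNA methylation (percent) of the 5 runs with the most dyads that rose (top, red) and fell (bottom, blue) in each liver library by age; points are libraries, open points are P5 and P10, which had no part in the calls, and lines join the means of the ages. The Fgg libraries lie between 65.4% and 79.5% at E18.5 and P1 and between 15.9% and 59.8% at P15 and P20.

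The largest changes of single CpGs were ranked among the 6142 with a value in all 16 libraries, of which 613 lay in promoters, 1112 in exons, 1891 in introns and 2488 in intergenic DNA. The 6 below are shown as examples of both directions, in 42-base stretches of the mm9 plus strand, centred on the measured CpG in capitals.
Otx2 nearest, chr14:49199828-49199869, rose: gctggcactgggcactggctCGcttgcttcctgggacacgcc
Nrbp2 promoter, chr15:75920507-75920548, rose: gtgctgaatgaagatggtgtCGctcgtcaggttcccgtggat
Zfhx3 promoter, chr8:111237849-111237890, rose: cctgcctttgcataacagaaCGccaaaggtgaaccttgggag
Macrod1 intron, chr19:7196096-7196137, fell: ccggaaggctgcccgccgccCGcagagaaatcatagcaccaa
Tmem57 intron, chr4:134369877-134369918, fell: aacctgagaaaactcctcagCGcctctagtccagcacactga
Rbm47 intron, chr5:66444676-66444717, fell: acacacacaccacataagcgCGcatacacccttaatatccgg

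Of the 8 CpGs with the largest gains, 3 were intergenic, 2 were in introns, 2 in promoters and 1 in the Mn1 exon. The largest was the intergenic CpG 81758 bp from the start site of Otx2, at 2.17% to 39.5% in perinatal libraries (median 23.5%) and 74.2% to 93.3% in weaning libraries (median 83.8%; limma, adjusted p = 5.68e-06). It was at 35.1% at P5 and 76.1% at P10, and in heart its means were 58.8% and 30.7%, a change that differed from liver (limma interaction, adjusted p = 0.00131). The CpG 84 bp upstream of Nrbp2, a pseudokinase gene, went from 8.27% to 29.5% (median 19.2%) to 46.8% to 91.7% (median 66.6%). The CpG 675 bp upstream of Zfhx3, a zinc-finger homeobox gene, went from 17.9% to 41.5% (median 24.2%) to 55.6% to 94.4% (median 66.7%). The others lay in introns of Tuba3a (a tubulin gene) and Mrvi1, in Mn1, and nearest to Fam65b and Tcf7, with gains of 44.6 to 54.4 points. In 7 of the 8 the sides did not overlap, while every weaning library was higher at 3.01% of the 6142 CpGs. The choice by size makes such a separation likely. Near Fam65b 1 weaning library was at 21.7%, below the highest perinatal library at 30.6%.

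Of the 8 largest losses 7 were in introns and 1 was intergenic. The CpG in Macrod1, a mono-ADP-ribosylhydrolase gene, went from 49.4% to 91.3% (median 82.5%) to 9.80% to 39.1% (median 31.9%; limma, adjusted p = 5.33e-05). The CpG in Tmem57 went from 60.5% to 91.9% (median 82.7%) to 17.1% to 57.5% (median 31.7%), and had reached 43.3% at P5. The CpG in Rbm47, an RNA-binding protein gene, went from 65.03% to 89.0% (median 73.1%) to 13.3% to 48.5% (median 29.9%), with 58.9% at P5 and 74.1% at P10. In muscle its means were 94.7% and 97.1%, and the change differed between liver and muscle (limma interaction, adjusted p = 6.46e-05). The rest, in Megf6, Sik3, Sft2d1 and Tom1l2 and near Matn1, fell by 41.6 to 46.4 points. Only at Tom1l2 did the sides overlap, with a lowest perinatal value of 39.1% and a highest weaning value of 40%. Every weaning library was lower at 0.651% of the 6142 CpGs, and the choice by size makes separation likely here too.

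**Figure D5:**
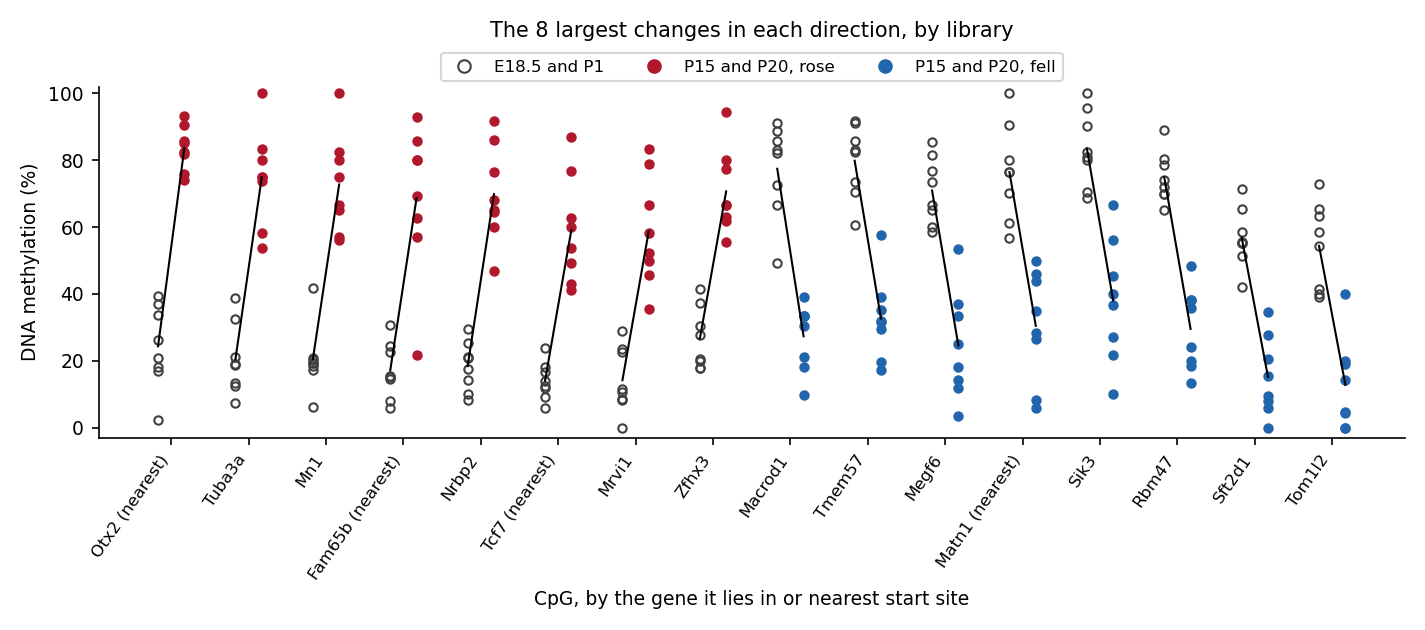
DNA methylation (percent) of the 8 CpGs with the largest gains (left 8) and the 8 with the largest losses (right 8) in the perinatal libraries (open circles, n = 8) and the weaning libraries (filled, n = 8); lines join the means, and "nearest" marks intergenic CpGs named by the closest start site. At Otx2 every weaning library is at or above 74.2% and no perinatal library is above 39.5%.

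Genes of hepatocyte proteins and enzymes carried more losses than CpGs of genes at large. Genes are counted here by the tested CpGs in their promoter or body, and the examples of each list were chosen after their values were seen. Of 44469 such CpGs in all genes 20.6% rose and 4.47% fell. The hepatocyte list had 103 CpGs in 26 genes, of which 18 rose (17.5%) and 29 fell (28.2%), with a median change of -2.40 points beside 6.00 over all genes. The losses lay in 8 genes, and 12 of the 29 were those of Fgg. Fgb, the beta chain of fibrinogen, fell at 3 of 4 CpGs, Uox (urate oxidase) at 3 of 3, Trf (transferrin) at 5 of 10 and Pck1 (a gluconeogenic enzyme) at 2 of 3. Gains lay in 12 genes, among them Abcc2, a bile canalicular transporter (2 of 4), Cbs, an enzyme of homocysteine breakdown (2 of 3), and Cyp27a1, a bile acid synthesis enzyme (2 of 3), whose mean perinatal levels were 68.0%, 80.1% and 75.5%. Others began lower, such as Hamp, the iron hormone hepcidin, at 40.8%, and Ugt1a1, a bilirubin-conjugating enzyme, at 47.8%.

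Afp, the fetal plasma protein that the liver stops making after birth, gained methylation at all 3 CpGs tested. The CpG in its intron with the smallest p was at 1.06% to 11.4% in the 8 perinatal libraries (median 6.30%) and at 18.8% to 64.3% in 7 weaning libraries (median 52.6%; limma, adjusted p = 0.000227). Its mean was 24.4% at P5 and 15.3% at P10.

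Liver transcription factors and nuclear receptors held more gains, but their CpGs began lower. Of 284 CpGs in 34 genes 98 rose (34.5%) and 21 fell (7.39%). The median perinatal level was 11.5%, beside 58.8% over all genes. The authors' filter kept CpGs under 10% only where some library reached 10%, so gains from a low start were in part fixed by the filter. Nfix had the most gains (20 of 44), but its gene model overlaps the blood cell gene Lyl1. Gains were also many in Gata4 (9 of 20), Tbx3 (10 of 16), Nr2f2 (9 of 19) and Nfib (12 of 21). Losses lay in Foxa3 (7 of 12), a pioneer factor of hepatocytes, in Hnf4a (2 of 4), the nuclear receptor that maintains the hepatocyte program, in Nr1i2 (2 of 2), the xenobiotic receptor PXR, and in Rxra (2 of 3). The smallest p among losses was that of a CpG in a coding exon of Klf15, a regulator of amino acid breakdown and gluconeogenesis. It went from 50% to 73.9% (median 70.8%) to 14.8% to 39.3% (median 35.3%; limma, adjusted p = 0.000153), and was at 78.6% in the 1 P10 library with a value. The CpG with the smallest p among gains, which gained 68.0 points, is counted under Nfix and lies in the coding exon of Lyl1, a blood cell factor; it went from 0 to 21.4% to 56.3% to 93.3%.

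In the growth hormone and hormone receptor list 15 of 94 CpGs rose (15.96%) and 20 fell (21.3%), beside 20.6% and 4.47% over all genes. Stat5b, the main transducer of growth hormone signals in liver, fell at 7 of 8 CpGs, whereas its neighbour Stat5a rose at 4 of 4. Klb, the co-receptor for the hormones FGF15 and FGF21, fell at 6 of 6. The Klb CpG with the smallest p went from 53.1% to 65.7% (median 56.0%) to 8.33% to 31.6% (median 22.2%; limma, adjusted p = 6.36e-05), and was low in muscle throughout (9.49% and 14.0%). The Stat5a CpG went from 13.3% to 69.6% (median 29.0%) to 58.3% to 91.4% (median 70%), with overlapping sides.

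Among 115 CpGs of suckling and weaning metabolism 22 rose (19.1%) and 19 fell (16.5%), beside 20.6% and 4.47% over all genes. Most of the losses lay in Scarb1, with 10, and in Cidec, a lipid droplet protein gene, with 7 of its 8 CpGs. The Scarb1 CpG with the smallest p of the list went from 69.7% to 92.3% (median 80.3%) to 9.52% to 40% (median 22.7%; limma, adjusted p = 6.57e-06). Mlxipl, the carbohydrate-responsive factor ChREBP, rose at 2 of 4, and its CpG with the smallest p went from a median of 34.5% to 56.1% (limma, adjusted p = 0.00586) with overlapping sides.

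Markers of the blood cells that the perinatal liver still holds moved in both directions. Of 118 CpGs in erythroid genes 20 rose (16.9%) and 11 fell (9.32%). Of 229 CpGs in leukocyte and progenitor genes 54 rose (23.6%) and 26 fell (11.4%). Over all genes 20.6% rose and 4.47% fell. Gains were thus below that share in erythroid genes and little above it in leukocyte and progenitor genes. Prtn3, a protease of neutrophil precursors, rose at 7 of 7 CpGs. Its CpG with the smallest p was at 7.89% to 34.4% in perinatal libraries (median 20.6%) and 65.2% to 92.0% in weaning libraries (median 76.5%; limma, adjusted p = 9.52e-06). Lyl1 rose at 3 of 3, Meis1 at 4 of 5, Flt3 at 5 of 7 and the erythroid gene Cldn13 at 3 of 3. None of the 13 CpGs of Spnb1 or the 7 of Add2, also in the erythroid list, was called. Losses lay mainly in Runx3 (15 of 31, with 2 gains) and Runx1 (6 of 24). The Runx1 CpG went from 28.6% to 57.6% (median 43.8%) to 0 to 10.5% (median 2.63%). Slc25a37, the mitochondrial iron importer of red cell precursors, fell at 6 of 13 CpGs and rose at 2, with its leading CpG at 50% to 83.1% and then 11.1% to 28.6%. The part of blood cells in the changes described here was not tested.

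Beside 20.6% gains and 4.47% losses over all genes, Kupffer cell genes had 3 gains (25%) and no loss among 12 CpGs of 4 genes. The same shares over all genes serve for the lists that follow. Endothelial, stellate and bile duct genes had 23 gains (21.3%) and 10 losses (9.26%) among 108 CpGs, with 7 of the losses in Krt7, a bile duct keratin. The promoter CpG of Spp1, the gene of osteopontin, rose from 0 to 36.1% (median 12.4%) to 54.6% to 81.3% (median 62.5%). Fetal growth genes had 17 gains (25.4%) and 6 losses (8.96%) among 67 CpGs, with 4 losses and 3 gains in Hmga2. Cell cycle genes had 10 gains (19.2%) and 6 losses (11.5%) among 52 CpGs, and the gains lay in Ccnd3 and Cdk6 alone. The Ccnd3 CpG with the smallest p went from 6.41% to 38.7% (median 18.4%) to 63.3% to 86.4% (median 80%). Genes of DNA methylation enzymes and readers had 8 gains (15.7%) and 3 losses (5.88%) among 51 CpGs; the losses were in Tet2.

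With libraries centred, 8.30% of the CpGs of all genes rose and 6.11% fell. Gains then still outnumbered losses in the transcription factor list (19.7% and 9.51%), the endothelial, stellate and bile duct list (14.8% and 12.04%) and the Kupffer list (8.33% and 0%). Losses outnumbered gains in the hepatocyte list (29.1% and 6.80%) and the hormone list (23.4% and 6.38%), as they had without centring. The balance turned to losses in the metabolism list (19.1% fell and 3.48% rose), the leukocyte list (15.3% and 11.8%), the erythroid list (10.2% and 9.32%), the fetal list (13.4% and 11.9%) and the DNA methylation list (7.84% and 1.96%), and it was even in the cell cycle list (13.5% each).

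Short sequence motifs of blood and liver factors were counted within 100 bp of each dyad, on both strands, as letters only. The PU.1 motif GAGGAAGT lay beside 1.40% of all 69547 dyads placed on the reference, 2.26% of those that rose and 0.797% of those that fell. The RUNX motif TGTGGTT lay beside 3.29%, 4.67% and 2.86%. For 3 liver factors the share was lower in gains and higher in losses than in all dyads. The FOXA motif TGTTTAC lay beside 2.21% of all dyads, 1.97% of gains and 5.07% of losses, the HNF4A motif CAAAGTCCA beside 0.244%, 0.154% and 0.870%, and the HNF1 motif GTTAATNAT beside 0.341%, 0.321% and 0.942%. The losses with the HNF4A motif were 24 dyads at 15 separate places and those with the HNF1 motif 26 at 16 places, so these shares rest on few sites. GATA (letters AGATAAG, 2.01%, 2.39% and 2.32%), KLF1 (letters CCACACCC, 1.80%, 1.95% and 1.38%), AP-1 (letters TGACTCA, 2.89%, 3.23% and 3.66%) and C/EBP (letters TTGCNNCAA, 1.36%, 1.60% and 1.63%) differed less. Among dyads with 3 to 10 other CpGs within 200 bp the PU.1 shares were 1.51%, 2.43% and 0.717% and the FOXA shares 2.64%, 2.01% and 5.97%. In that set the RUNX shares were 4.04%, 5.11% and 3.41%, the HNF4A shares 0.254%, 0.171% and 0.657%, and the HNF1 shares 0.398%, 0.412% and 0.777%, so that HNF1 was no longer lower in gains. A match is a run of letters, and no test was made.

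For the main motifs of each direction, the called CpG with the smallest p near a motif is shown, with the CpG and the motif in capitals on the mm9 plus strand; for PU.1 and RUNX the motif reads on the minus strand.
PU.1, rose, chr17:85259456-85259517: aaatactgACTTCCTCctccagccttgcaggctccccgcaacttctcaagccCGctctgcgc
RUNX, rose, chr15:6469570-6469670: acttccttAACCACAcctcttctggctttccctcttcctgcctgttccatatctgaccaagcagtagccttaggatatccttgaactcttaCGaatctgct
FOXA, fell, chr4:99994602-99994714: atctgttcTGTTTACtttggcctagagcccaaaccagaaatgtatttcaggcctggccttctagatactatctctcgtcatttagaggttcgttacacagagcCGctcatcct
HNF4A, fell, chr3:69086515-69086545: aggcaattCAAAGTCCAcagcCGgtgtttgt
The PU.1 CpG, intergenic and 69380 bp from Lrpprc, went from 12.6% to 32.7% to 61.5% to 86.2% (limma, adjusted p = 5.68e-06). The RUNX CpG, intergenic and 29744 bp from C9, went from 4.35% to 18.9% to 53.9% to 80%. The FOXA CpG, in an intron of Ror1, went from 42.4% to 64.3% to 0 to 22.2% (limma, adjusted p = 3.27e-05), and the HNF4A CpG, intergenic and 34246 bp from Ppm1l, from 33.3% to 52.4% to 4.76% to 38.5% (adjusted p = 0.00774 in limma).

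Few CpGs were called within each pooled side, and pairs of ages that shared no library gave mostly the same directions. Within a side 4 libraries stood against 4, or 3 against 5, so few calls do not show that the pooled ages are alike. Between E18.5 and P1 no CpG was called (0% of 70259; limma, with 3602 at an unadjusted p under 0.05, and none called in a separate fit of these ages, with 4682). Between P15 and P20 16 of 67710 CpGs were called (0.0236%; limma, with 5479 at an unadjusted p under 0.05), 7 up and 9 down, and none in a separate limma fit, with 3952 at an unadjusted p under 0.05. The 2000 CpGs with the smallest p between E18.5 and P15 were then measured between P1 and P20. The 1772 that had risen by a mean of 39.4 points rose by 21.6 points there, with 92.1% of 1768 measured above 0 beside 68.5% of all CpGs. The 228 that had fallen by 42.6 points fell by 30.6 points, with 96.9% below 0 beside 31.1% of all CpGs. In reverse, of the 1397 gains chosen between P1 and P20, 1333 were measured between E18.5 and P15 and rose by 27.8 points there, and of the 603 losses 585 were measured and fell by 24.8 points. The mean change over all CpGs was 5.35 points from P1 to P20 and 8.20 points from E18.5 to P15.

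The same ages in muscle and heart showed few changes. In muscle 477 of 46085 CpGs were called between 9 perinatal and 8 weaning libraries (1.04%; 211 rose and 266 fell), and in heart 58 of 47768 between 4 P1 libraries and 10 weaning libraries (0.121%); E18.5 hearts were not analysed here. CpGs that rose in liver had a mean change of -0.424 points in muscle (7469 CpGs) and 0.999 points in heart (9268 CpGs), against 21.7 and 20.0 points in liver. CpGs that fell in liver changed by -2.39 points in muscle (1550 CpGs) and 1.37 points in heart (1708 CpGs), against -25.1 and -24.4 points. The change itself differed between liver and muscle at 4755 of 33997 CpGs (14%; limma interaction, adjusted p of at most 0.1), more positive in liver at 3857 of them. It differed between liver and heart at 1208 of 41241 CpGs (2.93%), more positive in liver at 848. Among the CpGs called in liver, which had been chosen for a change there, it differed from muscle at 41.5% of gains and 45.2% of losses and from heart at 8.27% and 18.4%. These counts depended on the scale, with 2764 CpGs for muscle and 60 for heart on the logit scale, and the heart count was 773 without heart P1 replicate 5, 786 without liver P1 replicate 5 and 795 without liver P1 replicate 2. Many liver libraries carry the replicate number of a muscle or heart library of the same age, so the tissues may come from the same animals. The interaction fits took all libraries as independent. Of the named CpGs with the largest changes, the interaction with muscle did not pass for Mn1, Zfhx3, Sik3, Sft2d1 and Tom1l2 (limma, adjusted p = 0.119, 0.485, 0.804, 0.698 and 0.233). The interaction with heart did not pass for the CpG nearest Tcf7, Mrvi1, Macrod1, Megf6, Sft2d1 and Tom1l2 (limma, adjusted p = 0.299, 0.316, 0.137, 0.401, 0.189 and 0.388). In muscle the Zfhx3 CpG had means of 18.3% and 50.9%, and the Sik3 CpG 70.6% and 30.8%.

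Locus-specific bisulfite sequencing (LSBS), in which chosen fragments are amplified and sequenced deeply, covered 11 regions. It used 11 livers of E18.5 and P1 and 12 of P15 and P20. By their labels these include all 16 livers of the RRBS contrast, so LSBS was mostly a second measurement of the same livers. A few further livers of E18.5, P15 and P20 carry another form of label with the letter M. The study states that its LSBS livers were of both sexes. Of 124 CpGs 100 were called (80.6%; 68 rose and 32 fell), at the same limits in limma. The regions had been chosen by the study among those covered by its RRBS. All 14 CpGs at chr2:118336266-118336475, 30923 bp from Srp14, fell by 31.8 to 48.2 points, and the region went from 66.3% ± 1.66 (SD, n = 11) to 26.4% ± 5.97 (n = 12). All 10 CpGs at chr19:23211054-23211261, 4559 bp from Klf9, a thyroid and glucocorticoid responsive factor gene, fell, from 24.6% ± 2.60 to 9.096% ± 3.34. All 13 CpGs at chr11:21904683-21904866, 1874 bp from Otx1, rose, from 5.93% ± 1.59 to 37.7% ± 5.4. Only 11 CpG positions were shared with the RRBS data, on the same strand at 5, and the changes of the 2 methods there differed by a median of 6.28 points. LSBS called 9 of the 11 and RRBS 1. The 1 called by RRBS, near Rab3a, rose by 20.0 points in RRBS and by 35.4 points in LSBS.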

How the data were processed

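The authors aligned 50-base RRBS reads to mm9 with Bismark 0.7.6 and Bowtie2 and deposited methylation fractions (methylated reads divided by total reads, per CpG and library). They set CpGs under 10 reads to missing and removed CpGs missing in over 20% of samples or under 10% methylated in all; for LSBS they required 100 reads. Of the values in the 16 libraries 14.3% are missing. Read numbers per CpG were not used, so the depth behind a value is unknown. The members, gene lists and motifs were chosen with earlier results of these data known.

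Fractions were multiplied by 100 and compared with limma 3.58.1 in R 4.3.3, with Benjamini-Hochberg adjustment over all CpGs; fits were tested on simulated data. CpGs were placed on the mm9 sequence and GENCODE annotation of that build with Python 3.11.15 and pysam 0.24.0; 153 matched no CpG of the reference and have no context. Repeats could not be marked because the sequence is not soft-masked. In the tables used, 13 columns matched no sample given and were not used. Named CpGs were the 8 largest changes per direction with a value in all 16 libraries (1 per kb), the 5 runs with most dyads, the 100 kb window with most called dyads and the called CpG with the smallest p per list and direction; chromosome 18 was left out of single CpGs. The 3 perinatal libraries of lower coverage (E18.5 replicate 14, P1 replicates 1 and 5) were taken from the coverage the study lists per library. Alternatives covered scale, test, limits, missing values, ages, strands, build (mm10), each library left out and the replicate number as a block. Same-numbered libraries of different ages are different animals, and the correlation of their deviations was -0.0718 to 0.0284 over 12 pairs, so numbers were not treated as pairs.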

Additional observations from a re-analysis of the deposited data

Results flagged for a closer look

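In groups of 4 or 5 libraries of an age, 8 of 141 groups tested held a library far from the rest by Dixon's criterion, and chance alone marks about 1 in 20. The promoter mean of P1 replicate 1 was 23.7%, with the other 3 libraries at 25.9% to 26.2%. The mean of the Mn1 run in P20 replicate 2 was 44.2%, below the other 4 (56.8% to 61.5%). The single Mn1 CpG was at 41.7% in E18.5 replicate 14, with the others at 17.1% to 20.16%, and at 6.25% in P1 replicate 5, with the others at 18.52% to 20.8%. E18.5 replicate 15 was at 49.4% at the Macrod1 CpG (others 83.0% to 88.9%), and P1 replicate 5 at 69.2% at the Fgg CpG (others 75% to 75.3%). E18.5 replicate 14, the perinatal library with the fewest values, was at 20.0% at the Lyl1 CpG (others 2.22% to 3.70%) and at 69.6% at the Stat5a CpG (others 20.7% to 27.9%).

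With all libraries taken as independent, the change differed between liver and muscle at 4755 CpGs and between liver and heart at 1208 CpGs. Among the named CpGs, the interaction with muscle passed in limma for Tuba3a (adjusted p = 0.00571), Nrbp2 (0.00142), the CpG nearest Tcf7 (0.0207), Mrvi1 (0.000536), Macrod1 (0.00235), Tmem57 (0.00124), Megf6 (0.0336), the CpG nearest Matn1 (0.0349), Rbm47 (6.46e-05), Afp (0.00011), Klf15 (0.000189), Stat5a (0.0341), Klb (3.06e-05), Mlxipl (0.0754), Prtn3 (0.000568), Runx1 (0.000587), Hmga2 (0.00516) and Ccnd3 (0.000243). The interaction with heart passed for the CpG nearest Otx2 (adjusted p = 0.00131), Tuba3a (0.0312), Mn1 (0.0873), the CpG nearest Fam65b (0.0904), Nrbp2 (0.0571), Zfhx3 (0.0358), Tmem57 (0.0988), the CpG nearest Matn1 (0.036), Rbm47 (0.0057), Afp (0.0049), Stat5a (0.0538), Prtn3 (0.055), Hmga2 (0.0243) and Ccnd3 (0.00131). On the logit scale the interaction with heart passed at 60 CpGs only, so the heart count depended on the scale of the fit.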

How the results depend on the processing

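Of 562 recomputed values of 40 results, 512 stayed close to the reported value with the same call, 41 moved in size, 4 lost and 4 gained a call, and 1 changed direction. The count of called CpGs was 9817 with libraries centred (5978 rose), 1772 of 6142 CpGs with a value in all 16 libraries (1500 rose, 272 fell), 11713 at an adjusted p of at most 0.05 (9763 rose) and 3179 over 30 points (2323 rose, 856 fell). The 3 perinatal libraries with a mean coverage under 50 reads against the weaning libraries gave 4016 calls (3365 rose, 651 fell), from 3 perinatal libraries in place of 8. The replicate number as a block gave 5077 calls (3910 rose, 1167 fell) from fewer residual degrees of freedom, and 31 of 36 named CpGs passed with the block. Leaving out each library gave 14366 (without E18.5 replicate 15) to 17761 calls, 81.96% to 85.2% of them gains.

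With values in all 16 libraries, the share that rose was 15.2% in promoters, 24.4% in exons, 25.01% in introns and 25.9% in intergenic DNA, and the share that fell 4.59% in exons, 6.93% in introns and 2.57% in intergenic DNA. With promoters from 2 kb upstream to 500 bp downstream, 20.0% of exonic CpGs rose and 3.61% fell, and 24.7% of intronic CpGs rose. With medians in place of means, the exon change was 4.12 points and no longer passed, as did the intergenic (2.68) and intron (1.82) changes relative to promoters, and that of exons was reversed (-0.0878). The CpG-dense change passed over every CpG with a value (4.17 points) and with 1 value per dyad (2.29), and leaving out single libraries gave 1.59 to 2.59 points, passing without P1 replicate 3 or P20 replicate 2. The rise from 40 to 60% was 2.43 points and did not pass in CpGs with all values. Counting every dyad that moved over 5 points gave 3403 and 656 runs with 12740 and 2558 dyads. From P1 to P20, gains chosen between E18.5 and P15 changed by 25.5 points (1000 CpGs) and 19.7 points (called CpGs), and losses by -27.4 points (called CpGs). Gains chosen between P1 and P20 changed by 31.1 (1000 CpGs) and 22.3 points (called CpGs) from E18.5 to P15. Separate fits called 0 CpGs between P15 and P20. The logit scale gave 2764 CpGs that differed from muscle and 60 from heart; leaving out each library gave 773 (without heart P1 replicate 5) to 1353 for heart, with 795 and 786 without liver P1 replicate 2 and 5. The cause of these changes was not tested. Repeat context was not run, for lack of a masked sequence. Depth per CpG is unknown, and it limits single values.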

Other observations

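After the Mn1 window, the 100 kb windows with the most gains held only predicted genes and were chosen after their values were seen. Repeat content and read mapping in these windows were not examined, so reads from repeat copies could not be set apart. At chr9:3000000-3099999, where the annotation lists Gm10106 and other predicted genes, 39 of 72 dyads rose and none fell, with a median change of 11.3 points. At chr2:98500000-98599999, with Gm10800 and Gm10801, 33 of 52 rose and none fell, with a median of 10.2 points. These medians lay below the 31.2 points of the Mn1 window. Among losses, the window of Runx3, a transcription factor of lymphoid cells, held 15 losses and 1 gain among 25 dyads, and that of Sipa1, Rela and Map3k11 held 15 losses and 1 gain among 31.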
